A study of Mus musculus with 8 samples.

Results

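Monocyte-biased progenitors were the nuclei of sorted mouse marrow that carried the myeloid peroxidase gene Mpo and a granule protease gene together with the monocyte-side genes Irf8, Csf1r and Ly86. They were chosen by raw counts of unique molecular identifiers (UMIs): at least 5 of Mpo, at least 1 over Elane, Prtn3, Ctsg and Ms4a3, at least 2 over Irf8, Csf1r and Ly86, at most 1 of the lymphoid gene Dntt, and at most 2 over the MHC class II genes H2-Aa, H2-Ab1 and H2-Eb1. The rule held in 305 of 8708 nuclei (3.50%, 95% interval 3.13 to 3.91%). The cells were lineage-negative, Sca1-positive, ckit-positive (LSK) marrow cells, a sort that holds blood stem cells and early progenitors, and the 10x multiome assay was run on their nuclei. The series has 8 samples, 4 of RNA and 4 of chromatin accessibility, with 2 for each assay from T58A mice, which carry a point mutation of MYC, and 2 from WT littermates, each sample from 2 mice. Age and strain are not stated in the labels, and the chromatin samples were not analysed here. The RNA table carries 4 sets of barcodes that no label ties to a genotype, and it is named for T58A alone, so whether it holds WT nuclei is not known. T58A and WT were therefore not compared. The whole table is 1 sample without replicates, and no p-value was made from nuclei.

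Monocytes arise in marrow from myeloid progenitors that also give rise to neutrophils and dendritic cells. The transcription factor encoded by Irf8 favours the monocyte and dendritic fates over the neutrophil fate, and Csf1r encodes the receptor for the cytokine on which monocytes and macrophages depend. Ly86 encodes MD-1, the secreted partner of the Toll-like receptor relative RP105, and Mpo with the proteases Elane, Prtn3 and Ctsg fills the primary granules that neutrophil and monocyte precursors share.

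The rule used the counts of 12 genes, which are given here as a description. Members held a median of 17 Mpo UMIs (range 5 to 141), 5 UMIs of the proteases and 4 of the 3 monocyte-side genes. Irf8 was counted in 279 members (91.5%), Ly86 in 174 (57.0%) and Csf1r in 133 (43.6%). All 3 genes were counted together in 62 members, Irf8 with Ly86 in 92 and Irf8 with Csf1r in 56. Irf8 was the sole gene of the 3 in 69 members. In the table's remaining 7503 nuclei, which met neither the rule nor any comparison group below, Irf8 was counted in 13.5%, Ly86 in 6.14% and Csf1r in 2.97%. At the edge of the rule, 82 members held exactly 2 UMIs of the 3 genes, while 172 nuclei that met every other criterion held 1. Another 471 nuclei met every other criterion with 0 UMIs of the 3 genes. These 471, called granule protease nuclei below, were the main comparison group.

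The members' depth stood apart from the table's. Their median was 8818 UMIs per nucleus (range 2726 to 24630), against 4147.5 in all nuclei and 6307 in the granule protease nuclei, and they held 2844688 UMIs in all. A rule on raw counts is met more easily in deep nuclei: the share of members was 0.144% under 3000 UMIs, 5.40% from 5000 to under 8000, 11.5% from 8000 to under 12000, and 10.46% at 12000 or more. Barcode sets 1 to 4 held 62, 72, 47 and 124 members, which were 2.07%, 9.99%, 1.71% and 5.56% of their nuclei. Sets 2 and 4, the deeper sets, had the higher shares. Among nuclei of 5000 to under 8000 UMIs the shares of the 4 sets were 6.18%, 6.35%, 4.21% and 5.44%, with overlapping intervals. Among those of 8000 to under 12000 UMIs they were 6.57%, 20.6%, 6.07% and 12.7%, so set 2 stayed above sets 1 and 3 there. At 12000 or more they were 11.1%, 19.6%, 2.83% and 9.52%. With each nucleus thinned to 3000 UMIs and 2782 shallower ones left out, 84 of 5926 nuclei met the rule (1.42%), or 1.04%, 3.16%, 0.525% and 1.86% by set.

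**Figure D1:**
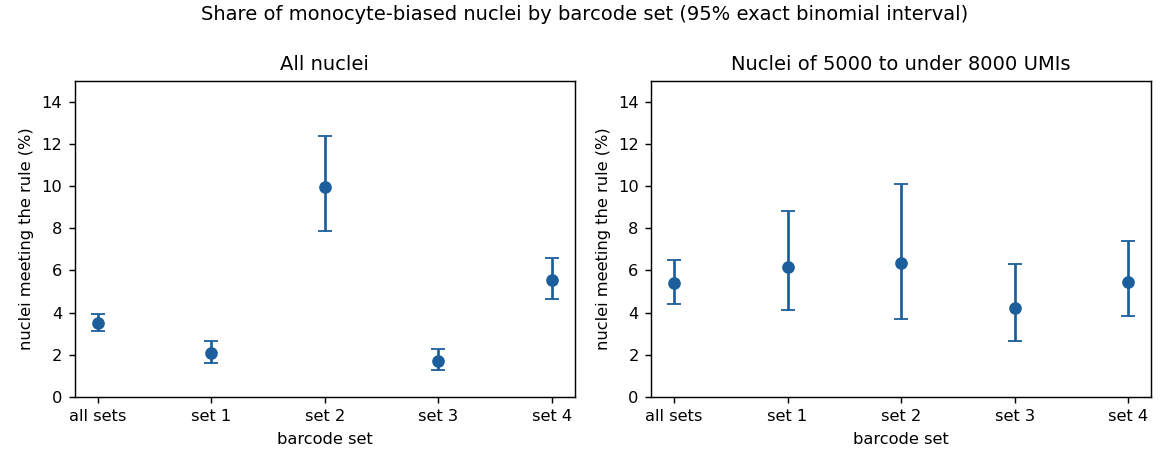
Share of nuclei that meet the monocyte-biased rule (percent, vertical axis) in all nuclei and in barcode sets 1 to 4, for all nuclei (left) and for nuclei of 5000 to under 8000 UMIs (right); points are shares and bars exact 95% binomial intervals. Set 2 stands highest at 9.99% on the left, while on the right the sets lie between 4.21% and 6.35% with overlapping intervals. Deeper nuclei are not drawn alone: from 8000 to under 12000 UMIs set 2 was at 20.6% and set 3 at 6.07%.

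Mitochondrially encoded genes took 15.2% of the members' UMIs, and 24.1%, 11.4%, 27.6% and 10.6% in sets 1 to 4. Set 1 and set 3 were thus the shallower sets with the higher mitochondrial share, in members as in the granule protease nuclei (29.1% and 27.1%). Of the members, 25 (8.20%) fell in the highest 5% of a simulated-doublet score, 12 of them in set 1. The table holds 72 nuclei whose barcode also occurs in another set, and 4 of these were members. The part of depth, mitochondrial share and doublets in the shares by set was not tested.

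The name was set beside monocyte genes that the rule did not use, from a list written with earlier results of these data known. Such a list is no independent check of the name. The list holds 22 such genes, and its summed level, in counts per 1000000 UMIs (CPM), was 4074 in members (2897 to 4570 over the 4 sets). It was 1645 in the granule protease nuclei (1440 to 1840), 1603 in 129 Mpo-primed nuclei without a protease UMI, 2235 in 128 nuclei with at least 5 MHC class II UMIs (1862 to 3360) and 1228 in the remaining nuclei. The members' lowest set lay above the highest set of the granule protease and Mpo-primed nuclei, but overlapped the sets of the MHC class II nuclei. Of the 22 genes, 21 had counts in members. Fcgr1, Ms4a6d and Cd14, picked after their values were seen, gave 1 UMI each over all 305 members, and Ms4a7 gave 0. Most of the members' 11589 counts came from Zeb2 (5712), which dendritic cells also carry, F13a1 (2252) and Emb (1968). In the granule protease nuclei Zeb2 gave 3810 of 5825 counts. The summed markers, which rest mostly on these genes, thus went with the label in the comparison with the granule protease and Mpo-primed nuclei. Of the sorting markers, the ckit gene Kit was counted in 82.0% of members, while the Sca1 gene Ly6a gave 14 UMIs in all.

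Markers of other cell types were summed in the same way. Dendritic markers reached 1281 CPM in members (1106 to 1465 over sets), 960 in the granule protease nuclei (709 to 1162), 1430 in Mpo-primed nuclei and 5630 in the MHC class II nuclei. The remaining nuclei had 1515 CPM. Of these 16 markers, 13 had counts in members, and Xcr1, Cd209a and Spib were at 0. Cd209a and Spib were at 0 in the granule protease nuclei too. Members are limited to 2 MHC class II UMIs by the rule, so their distance from the MHC class II nuclei is in part set by it. Neutrophil markers summed to 76.6 CPM in members (39.6 to 261) and 164 in the granule protease nuclei (78.3 to 310), ranges that overlapped. Mast and basophil markers were at 38.3 CPM (23.0 to 48.2) against 162 (77.2 to 233), with no overlap. The remaining nuclei had 31.5 CPM of them (24.4 to 40.5), within the members' range, so the granule protease nuclei were the higher group. Lymphoid markers stood at 26.4 CPM but reached 108 in set 1, where the granule protease nuclei had 13.9. Plasma cell genes, which vary strongly by set, were at 187 CPM in members (98.8 to 580) and 378 in granule protease nuclei (40.4 to 1391). T and NK, eosinophil, and endothelial and stromal markers gave 12, 1 and 10 UMIs in members.

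**Figure D2:**
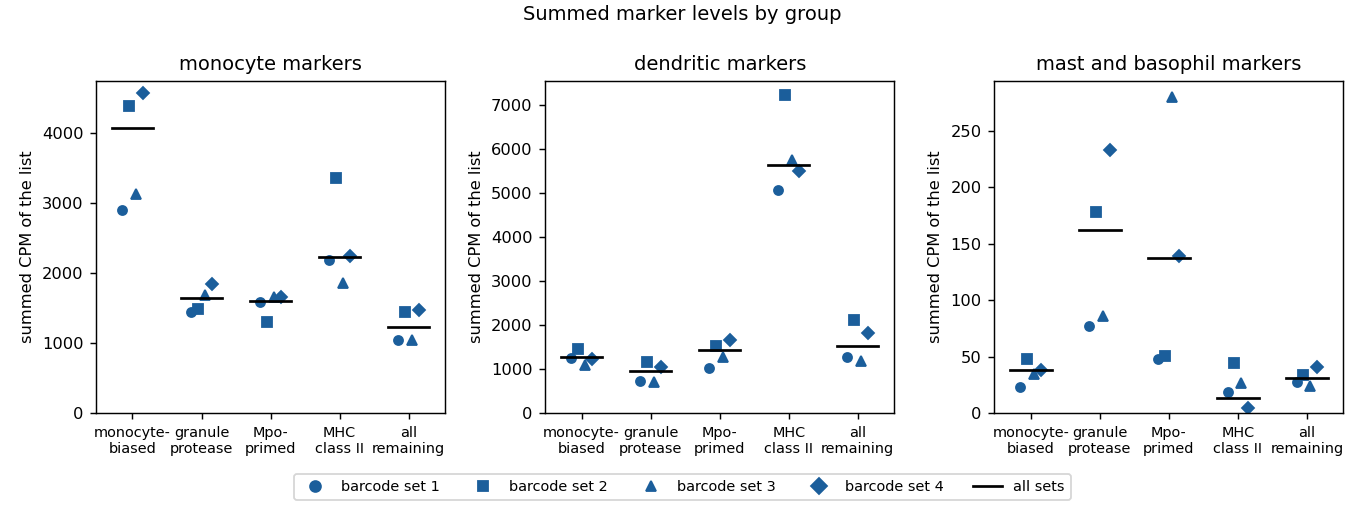
Summed level of the monocyte, dendritic, and mast and basophil marker lists (CPM, vertical axes) in 5 groups of nuclei; each point is a barcode set and each line the level over all sets. Members reach 4074 CPM of monocyte markers, and dendritic markers stand highest in the MHC class II nuclei at 5630. Mast and basophil markers are at 38.3 in members, 162 in granule protease nuclei and 31.5 in the remaining nuclei.

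Against the granule protease nuclei, which differ by 1 criterion of the rule, 8933 genes outside the rule had at least 50 counts over both groups. A gene was called where CPM plus 10 differed by at least 1.5-fold with the same direction in all 4 sets, which is a description and not a test. Of these genes, 170 were higher in members (1.9% of those measured) and 143 were lower (1.6%), and the median over all genes was 0.06 on the log2 scale. Without set 1 the lower genes numbered 215, and without sets 1 and 3 they numbered 311. A minimum of 200 counts left 87 higher and 81 lower, and an added 50 in place of 10 left 53 and 52. Ratios below are of CPM without the added 10, with exact 95% intervals for counting error only. They describe genes beside a rule that had already sorted nuclei by 3 monocyte-side genes. Overlap of set values is described below for single genes, and its share over all measured genes is not given. Called genes already had 1 direction in all 4 sets, so set values that do not overlap are expected more often among them.

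By CPM plus 10 the highest ratio was that of F13a1, the A chain of coagulation factor XIII, a transglutaminase that monocytes and macrophages make. Its level was 486, 833, 529 and 953 CPM in members of sets 1 to 4 and 77.2, 34.3, 113 and 32.6 in granule protease nuclei, 14.0 times higher (12.1 to 16.3) over all sets. The lowest set of members lay above every set of the granule protease nuclei. F13a1 was counted in 70.5% of members, 22.5% of granule protease nuclei and 9.38% of the MHC class II nuclei, whose median depth was 3854.5 UMIs. The chemokine receptor gene Ccr2, whose product draws monocytes out of the marrow, was at 133, 116, 45.2 and 48.2 CPM in members and 26.2, 9.65, 16.3 and 8.54 in granule protease nuclei, 5.91 times higher (4.31 to 8.25). The sets of the groups did not overlap, although members of sets 1 and 2 had the higher Ccr2. Ms4a6c, a membrane protein gene of the Ms4a family, was at 110.5, 197, 90.4 and 139.6 CPM against 29.3, 32.2, 17.8 and 20.2, 5.89 times higher (4.67 to 7.52), again without overlap.

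Other monocyte markers with a call had lower levels. Ctss, which encodes the lysosomal protease cathepsin S, was at 23.0, 42.0, 18.6 and 34.3 CPM in members and 9.26, 5.36, 5.94 and 3.11 in granule protease nuclei, 6.09 times higher (3.69 to 10.6). Mpeg1, which encodes the pore-forming perforin-2, was at 48.3, 51.9, 31.9 and 46.5 against 15.4, 2.14, 7.43 and 9.32 CPM, 5.67 times higher (3.77 to 8.79). Cybb, the catalytic subunit of the phagocyte NADPH oxidase, was at 34.5, 23.5, 31.9 and 17.1 against 13.9, 1.07, 14.9 and 4.66 CPM, 3.21 times higher (2.01 to 5.26). In each of these 3 genes the sets of the groups did not overlap, for Cybb only narrowly, at 17.1 against 14.9 CPM. The 3 genes gave 93, 132 and 67 UMIs over all members, and 19, 29 and 26 over all granule protease nuclei. Single sets of the granule protease nuclei thus rest on very few UMIs. The lack of overlap by set therefore carries little weight for these genes.

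The start regions of 3 of these genes are shown because F13a1 led the ratios and because Irf8 protein acts at ETS and interferon response motifs with the ETS factor PU.1. Ctss and Cybb were picked after their matches were seen. Each region runs from 250 bases before to 50 bases after a RefSeq transcript start on GRCm38.p6, in the direction of the gene. Capitals mark matches to GAGGAAGT (PU.1), GGAANNGAA (ETS-IRF composite), GAAANNGAA (interferon response element core) or TTGCNNCAA (C/EBP-like) on either strand. TTGCNNCAA has 1 more base in its middle than the 8-base C/EBP form TTGCNCAA. The regions are chr13:37049164-37049463 (minus strand) for F13a1, 1 of 2 RefSeq starts of that gene, chr3:95526536-95526835 (plus strand) for Ctss and chrX:9469275-9469574 (minus strand) for Cybb.
F13a1: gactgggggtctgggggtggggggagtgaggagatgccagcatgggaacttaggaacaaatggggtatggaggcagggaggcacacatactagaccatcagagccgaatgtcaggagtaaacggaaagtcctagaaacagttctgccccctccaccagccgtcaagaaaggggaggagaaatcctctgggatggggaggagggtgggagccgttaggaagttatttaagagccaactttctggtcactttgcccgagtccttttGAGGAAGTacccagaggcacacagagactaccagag
Ctss: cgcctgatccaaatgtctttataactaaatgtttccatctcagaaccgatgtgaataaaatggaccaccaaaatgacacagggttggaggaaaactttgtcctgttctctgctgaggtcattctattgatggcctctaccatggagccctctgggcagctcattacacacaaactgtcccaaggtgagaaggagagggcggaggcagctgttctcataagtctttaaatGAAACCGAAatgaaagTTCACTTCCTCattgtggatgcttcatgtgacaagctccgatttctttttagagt
Cybb: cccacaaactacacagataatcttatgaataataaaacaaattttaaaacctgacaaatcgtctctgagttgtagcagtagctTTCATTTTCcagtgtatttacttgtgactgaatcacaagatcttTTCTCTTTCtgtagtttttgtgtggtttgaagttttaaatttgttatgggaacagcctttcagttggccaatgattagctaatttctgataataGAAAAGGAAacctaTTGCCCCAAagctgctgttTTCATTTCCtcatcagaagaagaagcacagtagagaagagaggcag
The F13a1 region holds a PU.1 match from base 265, while the region at its other start holds no match to any of the motifs. The Ctss region holds an interferon response match from base 230 and, on the other strand, an ETS-IRF match from base 246 that overlaps a PU.1 match from base 249. The Cybb region holds 5 matches: 3 to the interferon response core from bases 84, 128 and 222, a match to TTGCNNCAA from base 236 and an ETS-IRF match from base 255. Over the genes called higher, 130 of 170 had a RefSeq start region, with 166 regions in all. GAGGAAGT stood in 10 of these (6.02%), in 2.98% of 168 regions of genes called lower and in 3.20% of all 32851 regions. GGAANNGAA was in 7.23%, 8.33% and 8.24% of the same 3 sets, and GAAANNGAA in 7.23%, 7.74% and 8.56%. TTGCNNCAA was in 2.41%, 0.595% and 2.08%, and the 8-base C/EBP form TTGCNCAA in 1.81%, 1.19% and 2.94%. A match describes letters only and is neither a bound site nor a cause.

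Of 15 measured monocyte markers, 10 were higher in members and 0 lower, with a median of 0.99 on the log2 scale (0.86 to 1.40 over sets). The shares over all measured genes were 1.9% higher and 1.6% lower. Zeb2, a zinc finger repressor that monocytes and dendritic cells carry, was at 1418, 1991, 1739 and 2311 CPM in members and 868, 889.8, 1125 and 1290.2 in granule protease nuclei, 1.87 times higher (1.79 to 1.94). The highest set of the granule protease nuclei lay below the lowest set of members. Klf4, a transcription factor gene that monocyte formation needs, was at 23.0, 9.89, 37.2 and 40.8 against 3.09, 7.504, 11.9 and 16.3 CPM, 2.69 times higher (1.81 to 4.06), and here the sets overlapped. Emb, which encodes the adhesion protein embigin, was 2.44 times higher (2.26 to 2.64), and Tifab 5.29 times higher (3.36 to 8.63). The markers without a call included Lyz2, the lysozyme gene, at 27.8 against 30.5 CPM, and the fractalkine receptor gene Cx3cr1 at 18.3 against 9.60. Ly6c2, whose product marks classical monocytes, was at 48.3, 108, 42.5 and 73.5 CPM in members against 15.4, 64.3, 37.2 and 59.0, also without a call. Lyz2 and Ly6c2 each have a near-identical copy in the genome, and the sources used here do not say how reads shared by copies were counted.

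**Figure D3:**
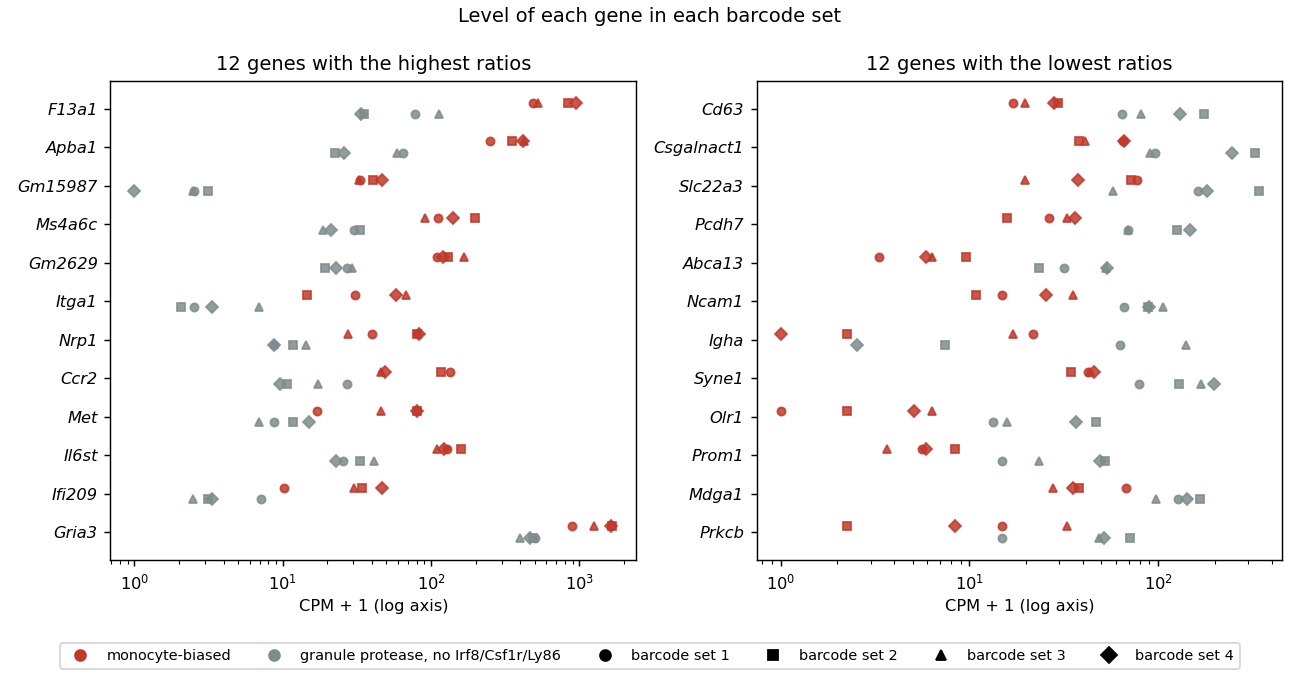
Level of the 12 genes with the highest ratio of CPM plus 10 (left) and the 12 with the lowest (right) in each barcode set (CPM plus 1, log axis), in monocyte-biased nuclei (red) and granule protease nuclei (grey); marker shape gives the set. F13a1 separates by 486 to 953 CPM against 32.6 to 113, and Cd63 by 16.1 to 28.4 against 63.3 to 175.

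Among cytokine receptors, 5 of 23 measured genes were higher in members and 0 lower (median 0.20 on the log2 scale). All measured genes were higher in 1.9% and lower in 1.6%. Both chains of the interleukin-6 receptor were among them. Il6st, which encodes the shared signalling chain gp130, was at 127, 158, 109 and 122 CPM in members and 24.7, 32.2, 40.1 and 21.7 in granule protease nuclei, 4.60 times higher (3.68 to 5.79), and the ligand-binding chain gene Il6ra was at 124, 169, 119.6 and 198 against 50.9, 64.3, 78.8 and 57.5, 2.71 times higher (2.31 to 3.19). Neither gene's sets overlapped, as is expected more often among called genes. Flt3, the receptor gene of early lymphoid, dendritic and myeloid progenitors, was at 295, 326, 213 and 242 CPM against 120.4, 158, 101 and 159, 1.92 times higher (1.71 to 2.15), and was highest in the MHC class II nuclei at 564. Il10ra and the type I interferon receptor gene Ifnar2 were 3.38 times higher (1.79 to 6.75) and 1.63 times higher (1.45 to 1.83). The granulocyte cytokine receptor gene Csf3r was at 90.3 CPM in members and 131 in granule protease nuclei without a call, and Csf2ra and Csf2rb were at 34.8 and 51.3 against 29.9 and 31.9.

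Chemokine and adhesion receptors had 4 of 16 genes higher (Ccr2, Itgb7, Selplg and Emb) and 0 lower, beside 1.9% and 1.6% of all measured genes. Their median was 0.39 and ranged from -0.06 to 0.49 over sets. Other surface genes among the highest ratios were not on a list. Nrp1, a co-receptor for semaphorins and VEGF, was 7.03 times higher (4.86 to 10.4), Met, the receptor of hepatocyte growth factor, 6.22 times higher (4.35 to 9.12), and the collagen-binding integrin gene Itga1 16.5 times higher (8.38 to 36.9), with 9 counts in the granule protease nuclei. Apba1 and Gria3 encode an adaptor and a glutamate receptor subunit that are best known from neurons. Apba1 was at 251, 349.9, 423 and 419 CPM in members against 63.3, 21.4, 57.96 and 24.9, 10.0 times higher (8.37 to 12.1). Gria3 was at 888, 1668, 1255 and 1644 against 505, 483, 399.7 and 463, 3.20 times higher (3.02 to 3.39), and was counted in 98.0% of members. Ifi209, of the interferon-inducible p200 family whose members are alike in sequence, was 12.2 times higher (6.36 to 26.2).

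Endosomal and signalling genes moved in part. Of 27 lysosome genes, 3 were higher (Ctsh, Ctss and Psap) and 1 was lower (Cd63), beside 1.9% and 1.6% of all measured genes. Psap, the precursor of the saposins that lysosomal lipid breakdown needs, was at 161, 234, 109 and 193 CPM in members and 94.2, 87.9, 62.4 and 79.2 in granule protease nuclei, 2.32 times higher (2.01 to 2.69). Unc93b1, which carries nucleic acid-sensing Toll-like receptors to endosomes, was 2.73 times higher (2.27 to 3.29), 1 of 8 genes of that pathway to be higher, while Irak3, an inhibitor of that signalling, was lower. The ITAM adaptor genes Tyrobp and Fcer1g were 2.33 times higher (1.55 to 3.55) and 2.49 times higher (1.71 to 3.68), whereas the IgG receptor gene Fcgr3 was 2.50 times lower (1.60 to 4.01). Cybb was the sole gene of 7 NADPH oxidase subunits with a call.

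Of 34 myeloid transcription factor genes, 4 were higher (Klf4, Zeb2, Rel and Bach2) and 2 lower (Gfi1 and Gata2), and their median was 0.11. Among all measured genes the shares were 1.9% and 1.6%. Gfi1, which encodes a repressor that neutrophil formation needs, was at 20.7, 17.3, 18.6 and 23.7 CPM in members and 44.8, 44.0, 29.7 and 53.6 in granule protease nuclei, 2.17 times lower (1.60 to 2.97). Gata2, a factor of stem, mast and basophil cells, was at 27.6, 18.5, 7.98 and 19.6 against 44.8, 68.6, 31.2 and 69.1 CPM, 3.02 times lower (2.23 to 4.16). The sets did not overlap for either gene, again as is expected more often among called genes. Spi1, which encodes PU.1, was at 60.1 against 49.99 CPM, and Cebpa at 7.73 against 11.3, both without a call. Cebpe, a gene of late neutrophil differentiation, had 5 UMIs in members and 26 in granule protease nuclei, below the minimum for a call.

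Genes lower in members included granule, mast cell and stem cell genes. Cd63, a tetraspanin of granule and lysosome membranes, was at 16.1, 28.4, 18.6 and 26.9 CPM in members and 63.3, 175, 80.2 and 130.5 in granule protease nuclei, 4.89 times lower (3.79 to 6.39). Prom1, which encodes CD133, was at 4.60, 7.42, 2.66 and 4.90 against 13.9, 51.5, 22.3 and 48.2, 7.18 times lower (4.20 to 13.2). The scavenger receptor gene Olr1 was 10.7 times lower (5.26 to 25.5), and the transporter genes Abca13 and Slc22a3 7.23 times lower (4.30 to 12.99) and 3.92 times lower (3.26 to 4.72). For Cd63, Prom1, Olr1 and Abca13 the set values did not overlap between groups, which is expected more often among called genes. Those of Slc22a3 overlapped, at 75.9, 70.5, 18.6 and 36.7 in members against 162, 339.8, 56.5 and 180.2. Of 5 mast and basophil markers, Cpa3, Mcpt8 and Hdc were lower, and the median was -1.34. Among all measured genes 1.6% were lower. Neutrophil markers had 3 of 6 lower (Camp, S100a8 and Gfi1), but Camp varied by set, at 6.90, 0, 34.6 and 0 CPM against 94.2, 1.07, 46.1 and 0.777. Of 4 stem cell markers, Mecom was 1.86 times lower (1.70 to 2.03), while Meis1 was at 403, 430.3, 329.7 and 473 against 394, 1187, 444 and 836 without a call. Dach1, a transcriptional cofactor gene, was at 329, 760.5, 433 and 836 against 892, 2280.1, 1183 and 2382, 2.71 times lower (2.58 to 2.86).

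The primary granule genes that the rule did not use differed little. Of 14 measured, 0 were higher and 2 lower (Prss57 and Nkg7), with a median of -0.09. The rule's own proteases are given as a description: Elane was at 101, 451, 136 and 292 CPM in members and 327, 864, 354 and 640.1 in granule protease nuclei, Prtn3 at 618 against 710.0, Ctsg at 326 against 359 and Mpo at 2934 against 2892. Several other lists had no or almost no calls. Over all measured genes 1.9% were higher and 1.6% lower, so lists this short would hold few calls at those shares. None of 44 S phase, 43 MYC target and ribosome biogenesis, 17 glycolysis, 14 MHC class I or 12 interferon response genes were called, with medians of 0.15, 0.15, 0.10, 0.15 and -0.05. Of 51 G2/M genes 1 was higher (Ckap2l; median 0.18), and of 24 immediate early and NF-kB genes Rel was higher and Egr1 lower.

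**Figure D4:**
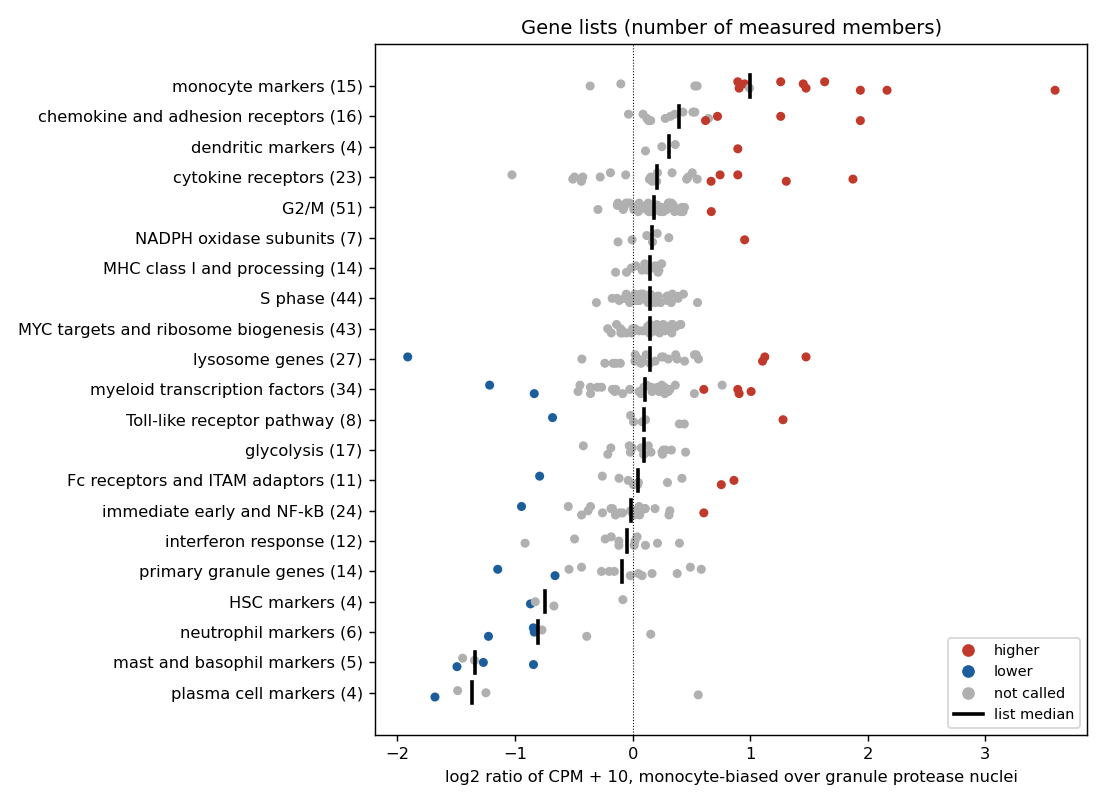
Log2 ratio of CPM plus 10 between monocyte-biased and granule protease nuclei (horizontal axis) for the measured genes of each list; red points are genes called higher, blue lower, grey not called, and black bars the list medians. Monocyte markers have the highest median at 0.99 with 10 of 15 called higher, and mast and basophil markers stand at -1.34.

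The second comparison group was the 129 Mpo-primed nuclei, which met the Mpo criterion without a protease UMI and with at most 1 UMI of the 3 monocyte-side genes. Their median depth was 5834 UMIs, and the members are the same as above, so both comparisons share them. The Mpo-primed nuclei numbered 43, 13, 27 and 46 in sets 1 to 4. Those of set 2 held 98062 UMIs, so directions in that set rest on few counts. Of 7524 genes measured, 332 were higher in members (4.41%) and 226 lower (3%), or 367 lower without set 1. F13a1 was at 62.7 CPM in the Mpo-primed nuclei against 56.5 in the granule protease nuclei, and Ccr2 was at 3.55, with 3 counts. Of 15 monocyte markers, 12 were higher and 0 lower, now with Cx3cr1, Ly6c2 and Slc8b1 but without Klf4. Of 13 primary granule genes, 7 were higher, among them the haptoglobin gene Hp, at 39.7 CPM against 1.18 (1 count), and Prss57, at 26.7 against 5.92. Members needed a protease UMI and Mpo-primed nuclei were chosen without one, so higher granule genes are in part set by the gates. Against granule protease nuclei, 0 of 14 measured genes of this list were higher. Alas1, the first enzyme of heme synthesis, was at 119 CPM against 22.5 in Mpo-primed nuclei and 227 in granule protease nuclei. The neuregulin genes Nrg1 and Nrg2 were at 79.8 and 292 CPM in members, 4.73 and 50.9 in Mpo-primed nuclei, and 18.6 and 142 in granule protease nuclei.

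Lower than in Mpo-primed nuclei were 3 of 4 stem cell markers (Mecom, Mllt3 and Meis1; median -1.20) and 6 of 22 immediate early and NF-kB genes (Junb, Jund, Ier2, Ier3, Nr4a1 and Ccl3; median -0.63). Angpt1, the ligand of the Tie2 receptor, was at 826, 642, 548 and 903 CPM in members and 1511, 4181, 2335 and 3516 in Mpo-primed nuclei, with no overlap. Kit was lower at 340.3 against 573 CPM, and Csf3r at 90.3 against 142. Of 50 G2/M genes 7 were higher, including Kif23, Tpx2 and Cdc20, and 0 lower, beside 4.41% and 3% of all measured genes. Their median was 0.40 and ranged from 0.17 to 1.00 over sets, highest in set 2, which held 13 Mpo-primed nuclei. None of 42 S phase genes were called.

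Levels were also set out by the count of the 3 monocyte-side genes. The rule used these counts and depth differed along them, so the values are a description. Over granule protease nuclei with 0 or 1 UMIs and members with 2, 3 and at least 4, the nuclei numbered 471, 172, 82, 59 and 164, and the median depth was 6307, 6932, 7124, 8344 and 9489 UMIs. F13a1 was at 56.5, 169, 324, 441 and 1082 CPM over these 5 classes, Ms4a6c at 24.6, 51.8, 67.2, 79.2 and 195 and Zeb2 at 1076, 1396, 1484, 1949 and 2227. All 3 were higher at each step. Intervals of neighbouring classes overlapped for Ms4a6c at 1, 2 and 3 UMIs and for Zeb2 at 1 and 2, so these steps are not resolved. Among nuclei of 5000 to 12000 UMIs alone, F13a1 was at 63.5, 206, 351, 431 and 1136. Ms4a6c was there at 30.5, 59.4, 72.4, 75.7 and 196, and Zeb2 at 1175, 1499, 1592, 2208 and 2284. Several neighbouring intervals overlapped there too. Dach1 was at 1855, 1185, 939.5, 1018 and 480.1 CPM and Cd63 at 120.3, 62.3, 26.6, 50.9 and 15.5, lowest in both cases in members with at least 4 UMIs. Spi1 was at 49.99, 51.8, 51.6, 62.2 and 62.7, with overlapping intervals in all classes. Elane did not follow 1 direction, at 587, 375, 219, 258 and 323. The nuclei just outside the rule, with 1 UMI, had levels between those of the 0-UMI nuclei and the members for F13a1, Ms4a6c, Ccr2, Zeb2, Dach1 and Cd63. A UMI count of 3 genes cannot tell a nucleus that lacks them from a shallow one.

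**Figure D5:**
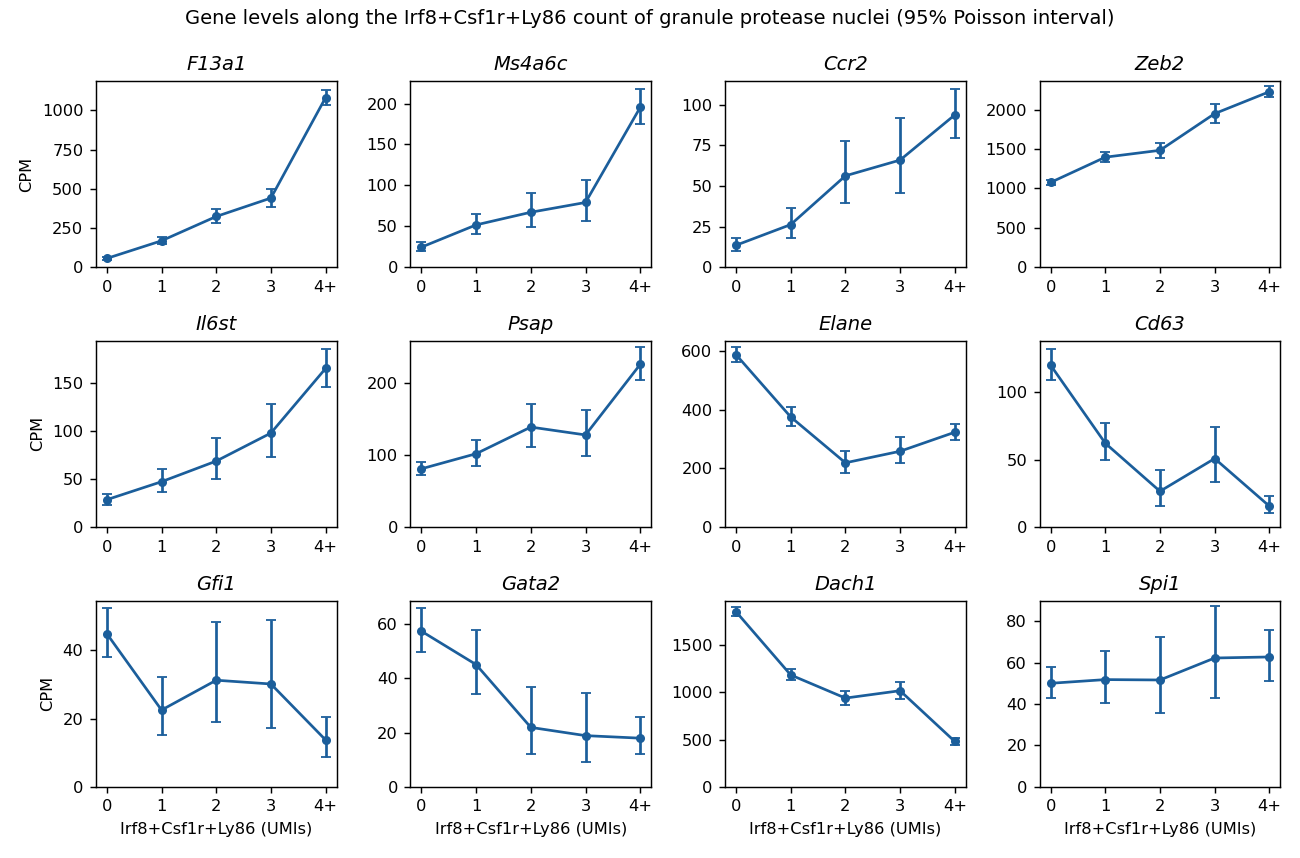
Levels of 12 genes (CPM, vertical axes; bars are exact 95% Poisson intervals) in granule protease nuclei and members ordered by their summed UMIs of Irf8, Csf1r and Ly86 (horizontal axes). F13a1 goes from 56.5 CPM at 0 UMIs to 1082 at 4 or more, Dach1 from 1855 to 480, and Spi1 stays between 49.99 and 62.7.

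The members were also divided by which of the 3 genes they carried. Csf1r and Ly86 together had at least 2 UMIs in 147 members (median depth 9632 UMIs) and 0 in 69 members (7320), which met the rule through Irf8 alone. Of 5902 genes measured between them, 193 were higher in the 147 members (3.27%) and 41 lower (0.695%). F13a1 was at 1084 against 284 CPM, Nrp1 at 107 against 14.4, Ccr2 at 99.8 against 44.9 and Cybb at 32.6 against 7.19, each higher in 4 of 4 sets. These 4 genes include F13a1, Ccr2 and Cybb of the 13 monocyte markers measured, of which Lyz2 was the other to be called. The 69 members numbered 18, 9, 13 and 29 in sets 1 to 4 and held 556277 UMIs in all. Nrp1 and Cybb had few counts there, so their direction by set rests on very few UMIs. Cybb reached the minimum count mainly through the 147 members. Members with Irf8 alone still had more F13a1 than the granule protease nuclei (284 against 56.5 CPM). Dendritic markers had 0 of 4 called in either direction between these members. Of 45 G2/M genes 8 were higher in the 147 members, among them Kif2c and Ect2. Stat4, a signal transducer of the interleukin-12 receptor, led the lower genes at 41.7 against 129 CPM.

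Cell cycle genes were read with each nucleus thinned to 2000 UMIs, since detection rises with depth. Members then had a median of 9 of the G2/M genes (8.5, 9, 7 and 10 by set), granule protease nuclei 8, Mpo-primed nuclei 6 and the remaining nuclei 5. At least 2 G2/M genes were counted in 97.7% of members (95.3 to 99.1%), 94.8% of granule protease nuclei, 94.5% of Mpo-primed nuclei and 88.7% of the remaining nuclei, with 0, 8, 2 and 1136 shallower nuclei left out. The share was near its ceiling in all groups. The medians of S phase genes were 6, 5, 6 and 4. Without thinning, the G2/M medians were 22, 17, 12 and 7.

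The members' neighbours were counted in a space of 30 principal components made without the 12 rule genes. Of the 15 nearest neighbours of a member, 41.1% on average were members, which made up 3.50% of all nuclei. Granule protease nuclei made up 14.8%, nuclei with 1 UMI of the 3 genes 10.7%, Mpo-primed nuclei 2.19% and the remaining nuclei 31.2%. No neighbour was an MHC class II nucleus. Neighbours of the granule protease nuclei were members in 7.94% and granule protease nuclei in 40.3%. Depth differs between these groups and its part in the neighbour shares was not tested.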

How the data were processed

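The deposited table holds UMI counts per gene and nucleus, as whole numbers with no normalization, and its barcodes carry 4 suffixes. Per the submitters' processing notes, the authors used Signac, Seurat and Cell Ranger ARC on mm10. Tool versions, annotation and nucleus filters are not given in the sources used here. All 8708 nuclei were kept, doublets included. The 45723860 UMIs cover 32285 genes.

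The members and gene lists were chosen with earlier results of these data known. Counts were summed per group and divided by the group's UMIs (CPM). A gene was measured where both groups together had at least 50 counts. A call needed 1.5-fold of CPM plus 10 and 1 direction over sets 1 to 4. Intervals are at 95% (Poisson for CPM, Clopper-Pearson for shares, binomial for ratios) and cover counting error only, not differences between mice. Named genes are the 12 highest and 12 lowest ratios per comparison among called genes with at least 100 counts, the 3 largest per list, and measured monocyte, dendritic and transcription factor genes. Not every gene that this rule picks is named, and any other gene was named after its values were seen. The doublet score is the share of simulated doublets among 30 neighbours. The gene calling was run on simulated counts with equal depth in all sets and with changes in well-counted genes only. Several real groups held fewer UMIs per set, so the simulation does not cover them or genes with few counts. Its outcome is not used here. Python 3.11.15, NumPy 2.4.6, SciPy 1.17.1 and scikit-learn 1.9.0 were used. Promoters came from RefSeq (GRCm38.p6).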

Additional observations from a re-analysis of the deposited data

How the results depend on the processing

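The barcode sets carry no replicate number or genotype. No paired analysis was possible because the columns carry no replicate numbers. Each alternative changed 1 choice, and 2 were added after seeing the data: nuclei of 5000 to 12000 UMIs, and leaving out sets 1 and 3 together. The share of nuclei that meet the monocyte-biased rule was 1.42% with nuclei thinned to 3000 UMIs, 3.97% with Mpo of at least 3, 2.55% with Mpo of at least 10, 2.56% with at least 3 UMIs of the monocyte-side genes, 7.49% among nuclei of 5000 to 12000 UMIs, and 2.79% to 4.33% with 1 barcode set left out (the lowest without set 4, the highest without set 3). Genes higher than in granule protease nuclei (170) numbered 87 with at least 200 counts, 284 with CPM plus 1 and 53 with CPM plus 50, and 178 to 191 with 1 set left out. Genes lower (143) numbered 81, 247 and 52 under the same 3 settings, 311 without sets 1 and 3, and 130 to 215 with 1 set left out, the highest without set 1. Fewer sets make the rule on direction easier to meet. Against Mpo-primed nuclei, higher genes (332) numbered 536 with Mpo of at least 10, 144 with at least 200 counts and 105 with CPM plus 50, and 326 to 473 with 1 set left out. Lower genes (226) numbered 98 with thinning to 3000 UMIs, 103 with at least 200 counts and 96 with CPM plus 50, and 158 to 367 with 1 set left out, the highest without set 1. The share of members with at least 2 G2/M genes was 100% when thinned to 4000 UMIs. The median of the myeloid transcription factors (0.11) was -0.0048 to 0.145 with 1 set left out (the lowest without set 4) and -0.011 with Mpo of at least 3; the cause was not tested. Of 348 list medians under alternatives, 318 stayed within their spread, 28 moved and these 2 changed sign. Of 576 values of named genes, 127 moved outside their 95% counting interval, 449 did not and 0 changed sign, and 490 of 528 under settings with calls were still called. Named genes were picked in these same data for large ratios or calls, with 1 direction in all sets for called genes. Kept signs and calls were therefore largely set in advance and are no independent support. Depth limits genes with few counts, such as Ctss and Cybb, and any reading of a 0.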

Other observations

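Genes called lower in members were long. The median gene length was 84.5 kb for the genes lower than in granule protease nuclei, 46.2 kb for those higher and 28.7 kb for all genes measured there. Against Mpo-primed nuclei it was 77.9 kb for lower genes, 25.1 kb for higher genes and 32.3 kb for all. Lengths were found for at least 96.5% of each set.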
